A study of Mus musculus with 6 samples.

Results

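H2-Q7 is a mouse major histocompatibility complex (MHC) class Ib gene. It was measured by 1 probe, A_51_P262079, which stands for the transcript NM_010394 and is printed at 10 places on each array. It is 1 of 50 mRNA probes on an array otherwise made for 14236 circular RNA (circRNA) probes. The probe was chosen by its scaled log2 signals on these same 6 arrays, high on 2 DKI arrays and low on the third, so its levels are a description and carry no test. The accession was matched to the symbol through RefSeq genes of assembly GRCm38.p6, which gave 44 of the 50 accessions a symbol and also list Q9 and Qa-2 as synonyms of H2-Q7. The study screened circRNAs in kidney cortex of male mice, with 3 arrays labelled as normal cortex and 3 labelled as cortex with diabetic kidney injury (DKI), each array carrying total RNA in a single dye, Cy3. Strain, age, how diabetes was brought about and whether each sample is a separate animal are not given in the sources used here, and the spread between arrays may therefore be technical. Some label text describes liver tumours and a human chip, at odds with the stated organism and tissue, and the groups rest on the sample titles.

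Class I molecules are cell surface proteins that pair with beta-2 microglobulin and show peptides to T cells and natural killer cells. The class Ia genes are expressed on nearly all nucleated cells, whereas the class Ib genes of the Q region, to which H2-Q7 belongs, are less variable between individuals and differ in presence and activity between inbred strains. H2-Q7 and its close relative H2-Q9 encode the Qa-2 antigen, which is held in the membrane by a lipid anchor. Class I genes are known to be raised by interferons and by nuclear factor kappa B through elements upstream of the gene.

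The members of the Q region are near copies of each other, and the probe's own sequence is not used here, so its signal could come from H2-Q7 together with relatives. To show how close such copies can be, the bases upstream of H2-Q7 are given with those of H2-Q6, the most alike of 9 other class I genes whose windows were compared, which did not include H2-Q8 or H2-Q9. They are taken from RefSeq, build GRCm38.p6, both on the plus strand and both ending at the base before the annotated gene start. Such bases lie outside the annotated gene, so they do not show how alike the transcripts are where the probe binds. How much relatives add to the probe's signal was not tested. The H2-Q7 window is chr17:35438905-35439139 and the H2-Q6 window is chr17:35424600-35424849. Capitals mark matches to 4 motifs searched on both strands, whose matches here do not overlap: GGGGATT, the opening letters of the kappa B element of class I promoters, AGTTTCA, those of their interferon response element, TGACG, the core of the cyclic AMP response element, and CCAAT, which reads ATTGG on the other strand.
H2-Q7: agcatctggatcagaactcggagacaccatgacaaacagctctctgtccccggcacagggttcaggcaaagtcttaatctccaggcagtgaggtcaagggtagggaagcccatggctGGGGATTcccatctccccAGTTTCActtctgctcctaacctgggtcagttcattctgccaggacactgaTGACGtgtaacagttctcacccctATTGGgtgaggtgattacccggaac
H2-Q6: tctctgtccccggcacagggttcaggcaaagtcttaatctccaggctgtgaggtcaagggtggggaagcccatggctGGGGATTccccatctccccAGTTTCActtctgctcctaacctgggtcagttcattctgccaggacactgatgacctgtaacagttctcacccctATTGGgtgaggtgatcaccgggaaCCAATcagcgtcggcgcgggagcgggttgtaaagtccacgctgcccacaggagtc

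The aligned stretch of both windows was identical at 190 of 196 positions, 96.9%. Against the same window, H2-D1, a class Ia gene, matched at 83.9%, H2-Q4 at 83.4% and H2-Q10 at 80.6%, and H2-T23, the gene of the Qa-1 antigen, at 53.6%. The windows of H2-Q7 and H2-Q6 both held GGGGATT and AGTTTCA. Among 32851 RefSeq promoter windows cut to the 235 bases of the H2-Q7 window, 2.58% held GGGGATT and 3.20% held AGTTTCA. The core TGACG was in the H2-Q7 window and not among the letters of the H2-Q6 window, and 16.3% of all windows held it. The letters CCAAT, in both windows, were held by 32.6% of all. Of the 10 class I windows compared, H2-Q7 included, 6 held GGGGATT, 7 AGTTTCA, 5 TGACG and 8 CCAAT. Those other than H2-Q7 were 250 bases long, against the 235 used for all promoters. GGGGATT and AGTTTCA were searched for as class I elements, so their higher share among class I windows follows from that choice. These matches are descriptions of the sequence. The arrays measured no binding to it.

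The H2-Q7 spots were nearly alike within an array and far apart between arrays. The processed signal is the brightness of a spot after background subtraction, as the scanner software gives it. In normal replicate 1 the 10 spots ran from 412 to 449.9, with a median of 426. In normal replicate 2 they ran from 694 to 743, with a median of 719.8, and in normal replicate 3 from 424 to 513, with a median of 475. The normal arrays thus lay within a narrow band, with normal replicate 2 the brightest.

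In DKI replicate 1 the spots ran from 5160 to 5512, with a median of 5326. In DKI replicate 2 they ran from 4327 to 4621, with a median of 4516. In DKI replicate 3 they ran from 106 to 125, with a median of 110.2. Every spot of DKI replicates 1 and 2 was brighter than every normal spot, and every spot of DKI replicate 3 was dimmer than every normal spot.

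Within an array the brightest spot was 1.07 to 1.21 times the dimmest, and the coefficient of variation over spots was 1.85% to 5.61%, highest in the dim DKI replicate 3. All 60 spots were well above background by the scanner's flag and none was saturated. Of the 60, 6 were flagged as outliers, 3 of them on DKI replicate 1. The local background beside these spots was 12 to 19 on all arrays. Spots of 1 array share its RNA, labelling and scan, and are not replicates of a condition.

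**Figure D1:**
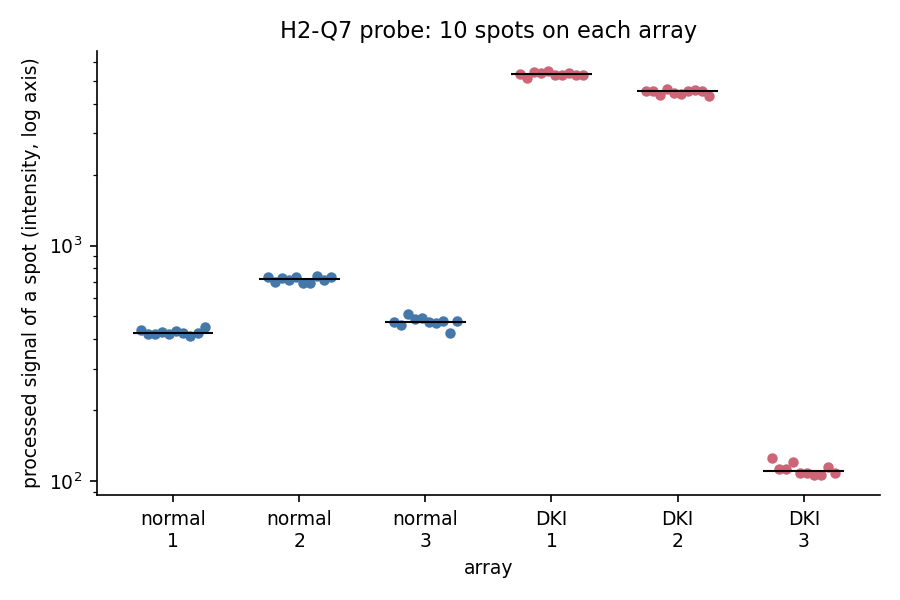
Processed signal of each of the 10 H2-Q7 spots (intensity, log axis) on the 3 normal and 3 DKI arrays, with a bar at the median of each array. Spots of 1 array lie close together, those of DKI replicates 1 and 2 at or above 4327, the normal ones between 412 and 743 and those of DKI replicate 3 at or below 125.

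Arrays differ in total brightness, so the mean log2 signal of the 10 spots was set relative to the 75th percentile of the circRNA probes on the same array. All log2 levels below are on this scale unless another is named. The H2-Q7 level was 1.94, 2.44 and 2.29 in normal replicates 1, 2 and 3. It was 4.61 and 4.82 in DKI replicates 1 and 2, above the normal arrays, and 0.28 in DKI replicate 3, below them. The normal arrays had a mean of 2.22 ± 0.26 (SD, n = 3) and the DKI arrays a mean of 3.24 ± 2.56 (SD, n = 3). The mean difference was 1.01, which is 2.02-fold higher in DKI and smaller than the SD between the DKI arrays. Without DKI replicate 3 the difference was 2.49, or 5.63-fold higher. Without DKI replicate 1 it was 0.33 and without DKI replicate 2 it was 0.22, so the mean over the DKI arrays depends on which are in it.

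Relative to the normal mean, DKI replicate 1 lay 2.39 higher, 5.24-fold, and DKI replicate 2 lay 2.60 higher, 6.05-fold. DKI replicate 3 differed by -1.94, 3.85-fold lower. In order of level, DKI replicate 2 came first and DKI replicate 1 was 0.21 below it, a step smaller than the normal SD of 0.26. The next step, from DKI replicate 1 to normal replicate 2, was 2.18. The normal arrays followed within 0.50 of each other, and the last step, from normal replicate 1 to DKI replicate 3, was 1.66. The DKI arrays thus lay on both sides of the normal ones and the groups were not separated. Of the 50 mRNA probes, 11 (22%) had fully separated groups. The pooled SD between spots of an array was 0.051, against 0.26 between the normal arrays and 2.56 between the DKI arrays. In cortex tissue, a change in the number of cells that make a transcript and a change in the RNA per cell cannot be told apart.

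The negative control probes of the array maker mark the level of probes with no mouse target. On the log2 scale H2-Q7 exceeded their mean by 5.02, 5.50 and 5.02 in the normal samples. It lay 8.39, 8.42 and 4.12 above it on DKI replicates 1, 2 and 3. Even on DKI replicate 3 its signal was thus 17.4 times that of the negative control probes. These were themselves dimmer there before scaling, at 6.44 against 13.0 to 15.9 on the other arrays, which raises that ratio.

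Actb, the cytoplasmic actin gene often used as a reference, shared the order of the DKI arrays around the normal mean. Its level was 1.11, 0.70 and 0.48 in normal cortex. In DKI replicates 1, 2 and 3 it was 1.66, 1.66 and -0.21. Relative to the normal mean, DKI replicates 1 and 2 lay 0.89 and 0.90 higher and DKI replicate 3 differed by -0.98. These Actb shifts were 1.87-fold at most upward, against 6.05-fold for H2-Q7. The group difference of Actb was 0.27, with an exact two-sided permutation p of 0.8 (adjusted over 2 reference comparisons 0.8), where 0.1 is the smallest p that 3 arrays against 3 can give. Its direction turned when scaled to the circRNA control probes (-0.18), where DKI replicates 1, 2 and 3 lay at -0.63, -0.24 and 0.33.

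The AS_circRNA_control probes are 14 control probes of the array maker with 10 spots each. Their mean level was -0.22, 0.47 and -0.25 in normal cortex. In DKI replicates 1, 2 and 3 it was 1.52, 1.14 and -1.31. All 14 lay above their own normal mean on DKI replicates 1 and 2, by 0.62 to 3.43 and by 0.39 to 2.18. All 14 lay below it on DKI replicate 3, where they differed by -2.85 to -0.22. Not all of the 14 were bright. Before scaling, the dimmest read 14.6 on normal replicate 3, as did the negative control mean, and the brightest 337. The group difference of the mean of the 14 was 0.45 (exact two-sided permutation p = 0.8, adjusted over the 2 comparisons 0.8). None of the Actb or control spots was saturated. The H2-Q7 probe, Actb and these control probes thus sat on the same side of the normal arrays on each DKI array, with a larger deviation for H2-Q7 than for Actb or the control probe mean. The part of this shared shift in the H2-Q7 values was not tested.

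**Figure D2:**
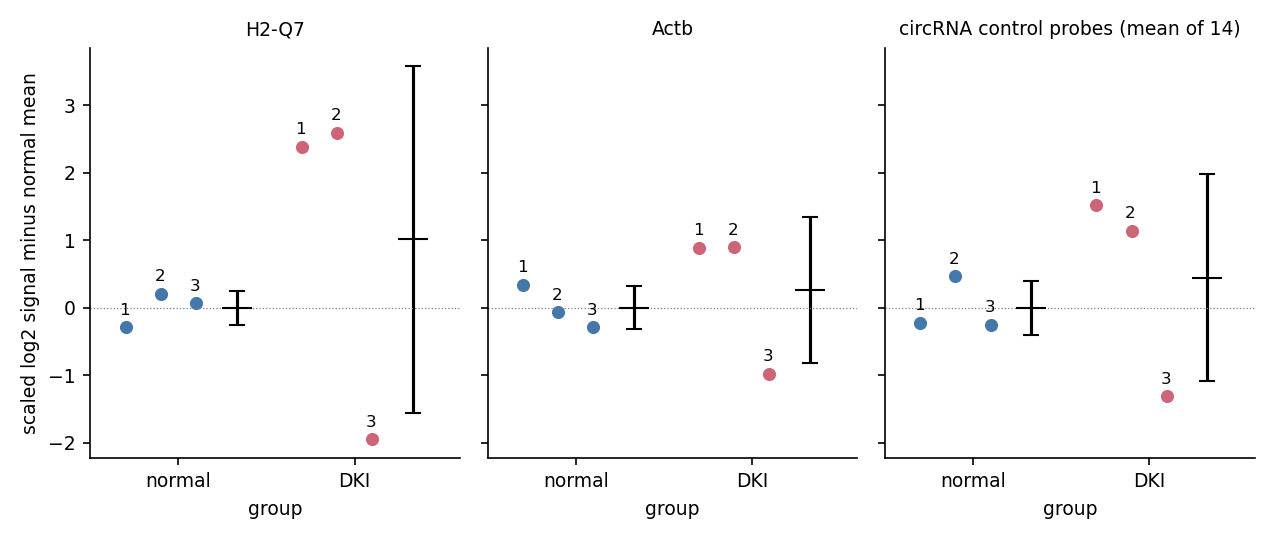
Scaled log2 signal minus the mean of the 3 normal arrays for H2-Q7, Actb and the mean of the 14 circRNA control probes, with each array numbered by replicate and the group mean ± SD (n = 3) beside the points. In each panel DKI replicates 1 and 2 lie above the normal arrays and DKI replicate 3 below them, with H2-Q7 at 2.39, 2.60 and -1.94.

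The bright corner spots, control spots of the array platform, also moved with the H2-Q7 signal. Their median brightness was 33156, 61512 and 39258 in the normal scans. In those of DKI replicates 1, 2 and 3 it was 76690, 67712 and 9317. Before any scaling they and H2-Q7 ranked the 6 arrays in the same order. Without scaling, the H2-Q7 log2 signals of DKI replicates 1, 2 and 3 differed from the normal mean by 3.35, 3.09 and -2.23, and those of the bright corner spots by 0.83, 0.61 and -2.20. For DKI replicate 3 both deviations were of like size, and for DKI replicates 1 and 2 that of H2-Q7 was the larger.

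Setting H2-Q7 relative to the bright corner spots, a scaling added after the data had been seen, gave log2 values of -6.31, -6.44 and -6.41 on the normal arrays, an SD of 0.071. DKI replicates 1 and 2 were then at -3.88 and -3.91, which is 2.51 and 2.48 above the normal mean. DKI replicate 3 was at -6.42, within the range of the normal arrays and -0.029 from their mean. Under the same scaling the median circRNA probe of DKI replicate 3 lay 1.91 above its normal mean, against -0.0047 with the 75th percentile, and Actb lay 0.94 above. Whether DKI replicate 3 had low H2-Q7 therefore rests on the scaling.

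The E1A probes, 10 further control probes of the platform, gave another scale, also added afterwards. On this scale the negative control mean ranged over 0.51 across the 6 arrays. The E1A scale thus nearly follows the level of the negative control probes. Relative to the E1A probes, H2-Q7 on DKI replicates 1, 2 and 3 lay at 2.94, 3.18 and -1.45 from the normal mean. Relative to Actb they lay at 1.495, 1.70 and -0.97, and relative to the circRNA control probes at 0.87, 1.46 and -0.64. Over 13 ways of scaling and reading the spots, DKI replicates 1 and 2 were above every normal array in 13. DKI replicate 3 was below every normal array in 12, the bright corner scaling being the exception. Several of the 13 share a scaling to a percentile of the circRNA probes and differ only in how spots or background were read. All 13 read the arrays on which the probe was chosen, so counts over them, here and below, are descriptions and no separate support.

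**Figure D3:**
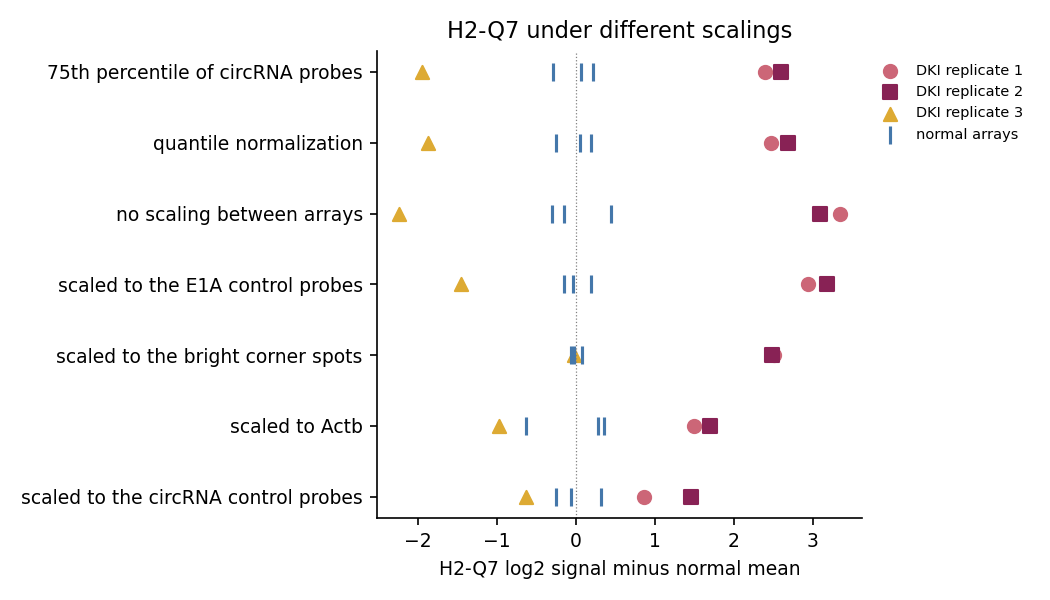
H2-Q7 log2 signal of each array minus the mean of the 3 normal arrays (horizontal axis) under 7 scalings (rows), with blue ticks for the normal arrays. DKI replicates 1 and 2 lie above the normal arrays in each row, from 0.87 to 3.35, and DKI replicate 3 ranges from -2.23 without scaling to -0.029 with the bright corner spots.

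With the 75th percentile scaling, the spread of H2-Q7 over the 6 arrays was the widest of the mRNA probes. From the lowest to the highest array its level ran over 4.54 on the log2 scale, 23.3-fold. The other 49 mRNA probes had a median range of 1.16 and a widest of 3.51, that of Ppara, the nuclear receptor of fatty acid oxidation genes. Among circRNA probes, 196 of 14236, or 1.38%, ranged at least as widely, and 1 of the 14 control probes did. H2-Q7 was the widest mRNA probe under 10 of the 13 ways of scaling and reading the spots. Relative to the bright corner spots its range was 2.57 and 22 mRNA probes were wider, up to 5.52 for Ppara. Relative to Actb it was 2.66 and 21 were wider, and relative to the circRNA control probes it was 2.09 and 46 were wider. A probe picked for its pattern is likely to be wide, so this places the value and tests nothing.

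**Figure D4:**
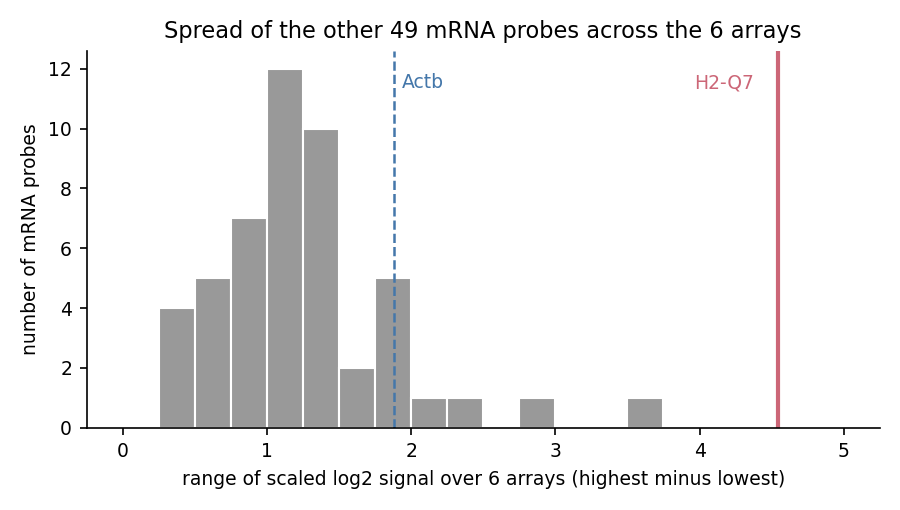
Number of mRNA probes (vertical axis) by the range of their log2 signal, scaled to the 75th percentile, over the 6 arrays (horizontal axis), for the 49 mRNA probes other than H2-Q7, with Actb at 1.88 marked by a dashed line. H2-Q7, marked by a solid line at 4.54, lies beyond the other probes under this scaling, the widest of which reaches 3.51.

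A level above every normal array on DKI replicates 1 and 2 and below every normal array on DKI replicate 3 was found for 3 of the 50 mRNA probes, 6%. These were H2-Q7, Actb and Nup50, a nuclear pore protein gene, named after its values were seen. Nup50 did not have it with another background correction (normexp) or with raw signals without background subtraction. H2-Q7 alone had it relative to the circRNA control probes and relative to Actb, and 0 mRNA probes had it relative to the bright corner spots. Relative to Actb, the Actb probe is 0 on every array by construction and could not have it. H2-Q7 was chosen for this arrangement, so that it kept it is no separate support. Among circRNA probes 1678 had that arrangement, 11.8%, and among the 14 control probes 11 did. The opposite arrangement was found for 10 of the other 49 mRNA probes and for 1886 circRNA probes, 13.2%. With DKI replicates 1 and 2 above all normal arrays, whatever DKI replicate 3, there were 8 mRNA probes, 16%, and 3156 circRNA probes, 22.2%.

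Likeness to H2-Q7 was counted as the number of the 15 pairs of arrays that a probe put in the same order. The probes share arrays and scaling, and the count is a description. The median was 5 pairs among the other mRNA probes, 6 among circRNA probes and 13 among the control probes. Actb was the most alike among named mRNA probes, with 13 pairs. Gpi1, the isomerase of glucose 6-phosphate, also had 13, with levels of -0.26, 0.42 and -0.19 in normal and 0.61, 0.87 and 0.27 in DKI cortex. Its DKI replicate 3 lay 0.28 above the normal mean, where H2-Q7 lay below it.

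Nup50, Acaa2 and Lhfp followed with 12 pairs each. Nup50 was at -3.20, -3.29 and -3.21 in normal cortex, close to the negative control probes. On DKI replicates 1, 2 and 3 it differed from its normal mean by 0.23, 0.26 and -1.12. Acaa2, which cuts fatty acid chains in mitochondria, lay 0.65, 0.97 and 0.069 above its normal mean on DKI replicates 1, 2 and 3. For Lhfp these values were 0.87, 0.73 and 0.12, from normal levels of -2.98, -2.06 and -2.64, also near the negative control probes. Of the 5, Actb and Nup50 were thus below the normal mean on DKI replicate 3 and the other 3 were not. These directions hold for processed signals with the 75th percentile scaling. With the normexp background correction the Lhfp values were 0.022, 0.076 and 0.11, and those of Nup50 were -0.38, -0.14 and 0.010. Relative to the circRNA control probes all 5 were below the normal mean on DKI replicates 1 and 2 and above it on DKI replicate 3. Relative to the bright corner spots all 5 were above the normal mean on DKI replicate 3.

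At the other end 6 named probes each put 1 pair in the order of H2-Q7: E2f1, Taf1a, Carhsp1, Trp53rka, Rab5a and Gsdmd. The first 3 differed most from H2-Q7 in size, and the DKI replicate 3 deviations of Trp53rka, Rab5a and Gsdmd were 0.25, 0.29 and 0.15. E2f1 is a transcription factor of the cell cycle, and its DKI replicates 1, 2 and 3 differed from the normal mean by -0.67, -0.60 and 0.41. Taf1a, a subunit of the factor that starts ribosomal RNA transcription, differed by -0.52, -0.38 and 1.88. Carhsp1, an RNA-binding protein gene, differed by -0.32, -0.38 and 2.43, so that DKI replicate 3 was its highest array. Without scaling and relative to the E1A probes, Taf1a and Carhsp1 were above their normal mean on all 3 DKI arrays. Of circRNA probes, 114 put all 15 pairs in the order of H2-Q7, 0.801%. The closest in size was ASCRP4004236, at 1.75, 1.94 and -1.71 from its normal mean on DKI replicates 1, 2 and 3.

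The arrays were scanned in 2 sessions and lay on 3 slides. Normal replicate 1 and DKI replicate 1 shared slide 1, and DKI replicate 1 lay 2.68 higher there, 6.39-fold. Normal replicates 2 and 3, on slide 2, differed by 0.14. DKI replicates 2 and 3 shared slide 3 and differed by 4.54, so the widest step of the series lay between arrays of the same slide, session and label. Within session 1, against normal replicate 1 alone, DKI replicates 1, 2 and 3 lay at 2.68, 2.88 and -1.66. With session as a block the group difference was 1.30, and with slide as a block, which leaves the pair on slide 1, it was 2.68.

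The other genes of the pathway were out of reach of this array. Of 68 genes of antigen presentation and interferon response, among them beta-2 microglobulin, the peptide transporters, the class Ia genes and the interferon-induced regulators, 1 had an mRNA probe, H2-Q7 itself. Of a list of 45 markers of tubule, podocyte, endothelial, immune and liver cells 0 had a probe, so the labelled tissue could not be set against that list. Outside it, and picked after their values were seen, 2 probes of lymphocyte genes were found. Mzb1, an endoplasmic reticulum protein gene of B and plasma cells, differed from its normal mean by -0.74, -0.55 and 0.45 on DKI replicates 1, 2 and 3. Il2, a T cell cytokine gene, differed by -0.61, -0.52 and -0.37. Both were thus below their normal mean on DKI replicates 1 and 2, where H2-Q7 was high, except that both were above it on DKI replicate 1 without scaling (0.22 and 0.35) and on DKI replicate 2 relative to the E1A probes (0.033 and 0.058). Their part in the H2-Q7 values was not tested.

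Over all 50 mRNA probes limma called 0 between DKI and normal arrays (Benjamini-Hochberg adjusted p under 0.05), and 6 had an unadjusted p under 0.05. Without DKI replicate 3 it called 15, 30.0%: 5 higher in DKI and 10 lower. The 50 include H2-Q7, which was chosen as high on DKI replicates 1 and 2. DKI replicate 3 was left out because it stood apart in earlier results of these data. Both counts are background and no test of H2-Q7. The median mRNA probe differed from its normal mean by -0.52, -0.24 and 0.094 on DKI replicates 1, 2 and 3. On DKI replicates 1 and 2 H2-Q7 thus lay opposite to the median mRNA probe, as it did under 11 of the 13 ways of scaling and reading the spots. The median mRNA probe was above its normal mean there without scaling, by 0.44 and 0.25, and relative to the E1A probes, by 0.031 and 0.34. The 75th percentile of the circRNA signal lay between 92.3 and 218.5 over the arrays, and 96.8% to 99.5% of circRNA probes were well above background.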

How the data were processed

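Per the file headers, the authors read each array with Agilent Feature Extraction 11.0.1.1, and the array design names build mm9. The deposited spot values are intensities: a background-subtracted processed signal, and the median raw brightness of spot and local background, not normalized between arrays. The authors' table of log2 values holds circRNA probes only and was not used.

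Log2 processed signals were averaged over all spots of a probe, and the array's 75th percentile over circRNA probes was subtracted. Groups follow the sample titles. The 50 mRNA probes were fitted with limma 3.58.1 (lmFit and eBayes, R 4.3.3), which was tested on simulated data. The simulated spread was taken without DKI replicate 3, so that test does not cover the wider spread with this array. Reference values had exact permutation tests (scipy 1.17.1). H2-Q7 had none. The number of arrays limits the precision. The planned normexp correction (offset 50) used median spot signals, since mean spot signals were not used here. The probe, the references and the lists were chosen with earlier results of these data known. Named probes were the 5 most and 3 least like H2-Q7 in array order with a symbol, ties decided by the difference in size between profiles, plus at most 2 circRNAs. Upstream windows were aligned with biopython 1.88. Alternatives were other scalings, spot summaries and background corrections, batch blocks, and arrays left out.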

Additional observations from a re-analysis of the deposited data

How the results depend on the processing

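The H2-Q7 difference between groups was positive under all 21 alternatives, from 0.22 to 2.68. The probe was chosen as high on DKI replicates 1 and 2, and every alternative reads the same arrays. The shared sign is therefore a description and no separate support. With any 1 array left out it was 0.22 to 2.49, highest without DKI replicate 3. The deviations of DKI replicates 1, 2 and 3 from the normal mean became 3.35, 3.09 and -2.23 without scaling, 0.87, 1.46 and -0.64 relative to the circRNA control probes, 1.495, 1.70 and -0.97 relative to Actb, 2.94, 3.18 and -1.45 relative to the E1A probes and 2.68, 2.88 and -1.66 within session 1. DKI replicate 3 also moved to -1.65 with normexp and to -0.029 relative to the bright corner spots. The scalings to E1A probes and bright corner spots and the session 1 values were chosen after seeing the data. The cause was not tested. Actb turned to -0.18 relative to the circRNA control probes and to -0.073 with a session block, and ran from -0.041 (without DKI replicate 2) to 0.90 over the fits to 5 arrays, also negative without DKI replicate 1 (-0.039). The control probe mean ranged from -0.084 (without DKI replicate 1) to 1.33 there.

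Replicate numbers were taken as names only, since deviations of same-numbered arrays correlated at -0.41, 0.39 and -0.095 over 14286 probes and 0 of 3 normal arrays matched its own number best. With the replicate number as a block the H2-Q7 difference was again 1.01. It could not change, since each number holds 1 normal and 1 DKI array. The count of mRNA probes called went from 0 to 1 with this block, and the 15 without DKI replicate 3 went to 0. Fits to 5 arrays called 0 to 15 mRNA probes. The 15 became 8 with quantile normalization, 3 relative to the bright corner spots and 30 with a slide block, and 1 to 19 when a further array was left out: 1 without DKI replicate 1 or 2, 2 without normal replicate 2 or 3. A group left with 1 array took its spread from the others.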
